A study of Mus musculus with 12 samples.

Results

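The response of the control genotype to stroke surgery was measured by setting 4 floxed mice after transient middle cerebral artery occlusion (tMCAO) against 4 floxed mice after sham surgery, 8 of the 12 mice of the study. Of the 784 probes counted, the 757 endogenous genes were compared; the 13 housekeeping genes of the panel and the 14 control probes were left out of the comparison. All 8 animals were male C57BL/6 mice labelled CD73flox, that is, they carry a floxed gene for CD73 (Nt5e), the surface enzyme that turns extracellular AMP into adenosine. The labels give no age, and they name no Cre recombinase for these mice. In the tMCAO group the artery was blocked for 50 min and then reopened, and brains were taken on day 3 from both groups. The third group of the study, CD73ko mice after tMCAO, was not part of the contrast. It entered the scaling of the libraries, the estimate of the spread between mice and a background filter tried as an alternative. Nt5e is not among the genes counted, so the state of the CD73 gene could not be read from these data.

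Total RNA of the whole brain was counted with the nCounter Glial Profiling Panel, in which barcoded probes bind the RNA of chosen genes and are counted one by one without amplification. A normalised count here is a count scaled to the mean effective library size. Totals over 770 genes lay between 726333 and 848853 in 7 of the 8 libraries and reached 293589 in sham replicate 4. Sham replicate 4 and tMCAO replicate 3 stood apart from their groups: over all genes, chi-square per degree of freedom was 9.19 to 12.9 between sham replicate 4 and the other shams and 15.1 to 17.8 between tMCAO replicate 3 and the other tMCAO mice, against 1.73 to 4.32 for the other pairs within a group. Results are therefore also given without these libraries. Markers that define brain tissue were present in the shams at high counts, among them the neuronal gene Snap25 with 9171 ± 403, the myelin gene Mbp with 2508 ± 88.0 and the astrocyte gene Aqp4 with 736 ± 127 normalised counts (mean ± SD, n = 4 mice).

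Brief blockage of this artery starves the striatum and the overlying cortex of blood on one side, while the other side is largely spared. In the days that follow, microglia, the resident phagocytes of the brain, change shape and gene expression and clear dead cells and myelin with the help of complement, Fc receptors and lysosomal proteases. Monocytes enter from the blood, and astrocytes around the lesion enlarge and make more intermediate filaments. Neurons in the core die, and those at its edge can change the expression of receptors, channels and pumps. In RNA of a whole brain, fewer cells of a type and less RNA per cell cannot be told apart, and the injured tissue is diluted by the spared tissue.

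Genes that rose outnumbered genes that fell and moved much further. By edgeR's quasi-likelihood F test at an adjusted p of 0.05, 167 of the 757 genes differed between tMCAO and sham (22.1%): 107 were higher after tMCAO (14.1%) and 60 were lower (7.93%). In 191 genes (25.2%) the 4 tMCAO mice and the 4 shams did not overlap, with tMCAO higher in 110 genes (14.5%) and lower in 81 (10.7%). Of the called genes, 95 that rose and 50 that fell had groups without overlap. Among the genes that rose, 28 rose by less than 1.5-fold, 25 by 1.5- to 2-fold, 40 by 2- to 4-fold and 14 by more than 4-fold. Of the genes that fell, 55 fell by less than 1.5-fold and 5 by 1.5- to 2-fold, and 0 fell by 2-fold or more. The median log2 fold change was 1.01 over the genes that rose and -0.27 over those that fell, against -0.01 over all 757 genes. Of all calls 64.1% were rises, a share that was 47.8% when libraries were centred on their median gene (97 rises, 106 falls) and 47.3% when they were centred on the housekeeping genes (89 and 99). Without sham replicate 4 the calls were 120 rises and 86 falls, without tMCAO replicate 3 they were 105 and 47, and without both libraries they were 123 and 82, of which 99 rises and 49 falls were also called with all mice.

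**Figure D1:**
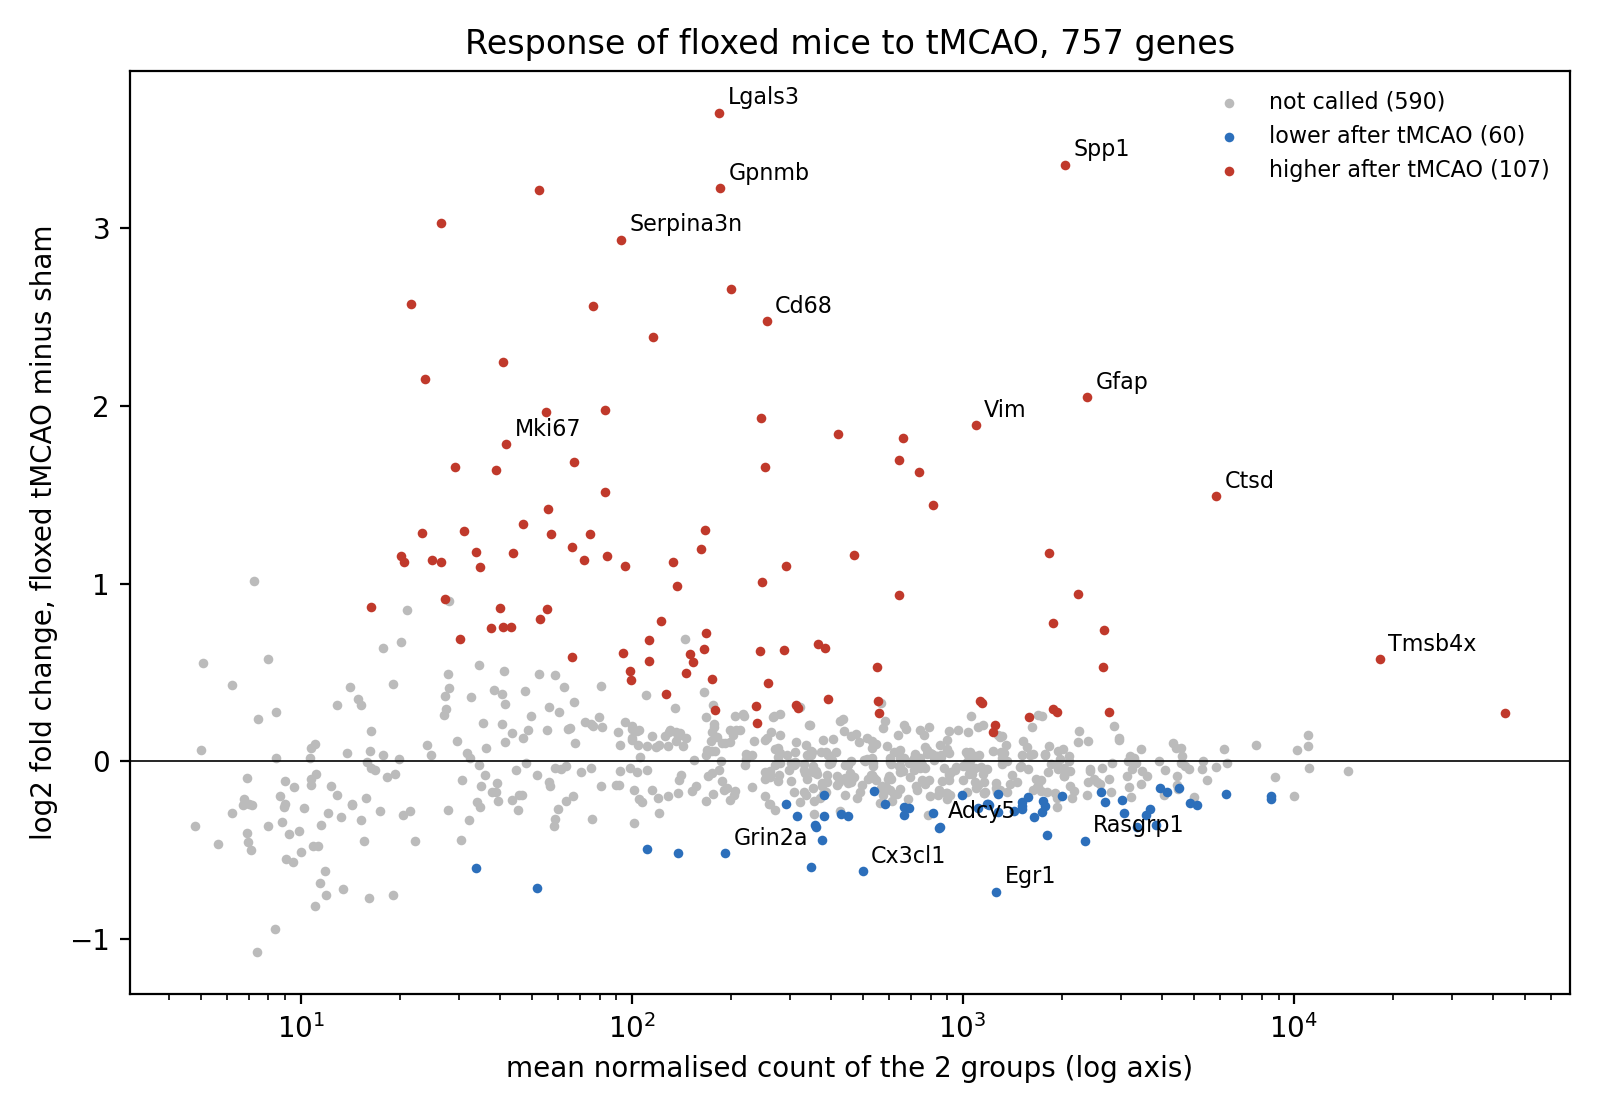
Log2 fold change of floxed tMCAO over floxed sham (vertical axis) against the mean normalised count of both groups (horizontal axis, logarithmic), 1 point per gene for 757 genes, coloured by call. The 107 genes that rose reach a log2 fold change of 3.65 (Lgals3), while the 60 that fell lie between -0.73 (Egr1) and 0 and mostly at counts above 100.

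Lysosomal genes rose together. Of 15 genes for lysosomal and phagocytic machinery, 10 rose and 0 fell, with a median log2 fold change of 0.74 over the 15. Counts of Ctsd, which encodes the protease cathepsin D, were 3271, 3165, 3085 and 2688 in the sham mice and 8293, 8155, 7275 and 10687 in the tMCAO mice, listed here and below in the order of replicates 1 to 4. Every tMCAO mouse stood above every sham, replicate 4 highest and replicate 3 lowest. The log2 fold change was 1.49 ± 0.16 (estimate ± SE, adjusted p = 9.29e-06). The protease genes Ctss, Ctsl, Lgmn and Ctsb, for cathepsin S, cathepsin L, legumain and cathepsin B, rose by 1.44 ± 0.15, 1.10 ± 0.15, 0.94 ± 0.11 and 0.74 ± 0.12 on the same scale. Counts of Cd68, a lysosomal membrane glycoprotein of phagocytes, were 74.5, 90.4, 74.9 and 68.5 in the sham mice and 452, 398, 384 and 507 in the tMCAO mice. These groups were also far apart, and the log2 fold change was 2.47 ± 0.20. Grn, which encodes progranulin, rose by 1.16 ± 0.13, and Lamp2, a structural protein of the lysosomal membrane, by 0.34 ± 0.06. Lamp1 (0.20 ± 0.06), a related membrane protein, passed as well, but its call was lost without sham replicate 1 (0.0817), sham replicate 2 (0.0811), tMCAO replicate 2 (0.0535) and tMCAO replicate 4 (0.0874), the adjusted p given in brackets. Of 9 Atp6v genes, which encode subunits of the proton pump that acidifies lysosomes, 1 rose and 0 fell. The one that rose was Atp6v1g1 (0.32 ± 0.09), a call that was lost without sham replicate 1 (0.0527), sham replicate 2 (0.0695) and tMCAO replicate 4 (0.0625). Among the others, Atp6v1a differed by -0.14 ± 0.05 (adjusted p = 0.085) and Atp6v0d1 by 0.01 ± 0.06 (adjusted p = 0.895), neither past the threshold, though Atp6v1a was called lower under median and housekeeping scaling. The count of 10 was also 10 without sham replicate 4 and without tMCAO replicate 3, and 11 without both.

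Lysosomal genes are known to share the E-box CACGTG, which the transcription factor TFEB and its relatives bind, and the promoters of 3 genes that rose are shown for that reason. The sequences are RefSeq's for build GRCm38.p6, each from 250 bases before to 20 bases after a start of the gene, read 5′ to 3′ on the strand of the gene. Lgmn has 2 starts in the promoter table, of which 1 is shown. Capitals mark CACGTG, which reads the same on both strands. Positions are chr7:142387808-142388077, minus strand for Ctsd, chr12:102439073-102439342, minus strand for Lgmn and chr8:13158911-13159180, plus strand for Lamp1.
Ctsd: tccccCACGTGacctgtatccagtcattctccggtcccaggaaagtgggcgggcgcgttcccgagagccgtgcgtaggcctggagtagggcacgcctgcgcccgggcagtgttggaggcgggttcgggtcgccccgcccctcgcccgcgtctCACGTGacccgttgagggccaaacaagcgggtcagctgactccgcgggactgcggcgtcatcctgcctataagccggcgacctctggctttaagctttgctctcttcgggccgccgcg
Lgmn: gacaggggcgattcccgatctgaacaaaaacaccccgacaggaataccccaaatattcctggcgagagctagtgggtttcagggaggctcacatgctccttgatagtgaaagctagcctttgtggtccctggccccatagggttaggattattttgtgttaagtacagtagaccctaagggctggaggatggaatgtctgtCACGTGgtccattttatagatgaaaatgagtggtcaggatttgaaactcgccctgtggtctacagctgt
Lamp1: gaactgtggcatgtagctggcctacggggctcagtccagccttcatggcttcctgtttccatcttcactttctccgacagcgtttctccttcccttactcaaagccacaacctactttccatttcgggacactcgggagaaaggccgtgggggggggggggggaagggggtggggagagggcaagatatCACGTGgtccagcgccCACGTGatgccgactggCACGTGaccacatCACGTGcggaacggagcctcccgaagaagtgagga
The motif stands 2 times in the window of Ctsd, 1 time in that of Lgmn and 4 times in that of Lamp1. Searched over the full window of 250 bases before to 50 after the start, it stood in 4 of the 9 lysosomal genes that rose and have a promoter in the table (44.4%). The share was 10.2% over 558 panel genes and 8.09% over all 27025 genes of the promoter table. A gene was counted where the window of any of its starts held the motif. Among 42 panel genes that fell it was 9.52%. A match is a description of the letters and shows no binding.

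Genes of phagocytic and disease-associated microglia included the largest rises of the panel, those of Lgals3 and Spp1. Of 17 such genes 11 rose and 0 fell, with a median log2 fold change of 0.93. Counts of Spp1, which encodes the secreted protein osteopontin, were 374, 365, 346 and 373 in the sham mice and 3939, 4035, 3251 and 3664 in the tMCAO mice. The shams lay close together, and all tMCAO mice were far above them, with replicate 3 the lowest. The log2 fold change was 3.35 ± 0.35 (adjusted p = 7.81e-06). Tyrobp, the signalling adaptor of TREM2 and other receptors of myeloid cells, had counts of 161, 168, 191 and 228 in the sham mice and 648, 660.2, 584 and 726 in the tMCAO mice. Replicate 3 was again the lowest tMCAO mouse, well above the highest sham, and the log2 fold change was 1.84 ± 0.19. Trem2 itself, a receptor for lipids and debris, had 40.8, 43.8, 45.1 and 45.6 in the sham mice and 106, 104, 74.7 and 139 in the tMCAO mice. Its groups did not overlap and it rose by 1.28 ± 0.22 (adjusted p = 0.000713). Clec7a, the receptor dectin-1 for fungal glucans, was above background in 2 of 4 shams and was at least 2.70-fold higher, measured against the background limit of the negative probes. Cd9, a tetraspanin of the cell surface, rose by 0.93 ± 0.17, and Timp2, an inhibitor of metalloproteases, by 0.28 ± 0.06. Members that did not pass included the growth factor gene Igf1 (-0.07 ± 0.32, adjusted p = 0.899), the lipase gene Lpl (0.28 ± 0.16, adjusted p = 0.267) and the integrin gene Itgax, which was above background in 1 sham and 0 tMCAO mice.

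Most genes that mark homeostatic microglia rose, though not all. Of 22 measured, 13 rose (59.1%) and 0 fell, with a median of 0.58, and 15 rose without both libraries that stand apart. Fcrls, an Fc receptor-like gene of microglia, had counts of 90.4, 113, 92.0 and 119 in the sham mice and 404, 421, 249 and 477 in the tMCAO mice. The tMCAO mice lay above the shams without overlap, but replicate 3 lay well below the other 3. The log2 fold change was 1.93 ± 0.22, and 2.10 without tMCAO replicate 3. Csf1r, the receptor on which microglia depend for survival, had 334, 319.8, 279.6 and 259 in the sham mice and 468, 428, 394 and 584 in the tMCAO mice and rose by 0.64 ± 0.12. Cx3cr1, the receptor of fractalkine, had 149.8, 119, 129.9 and 98.9 in the sham mice and 223, 189, 138 and 292 in the tMCAO mice. Its groups overlapped, since tMCAO replicate 3 lay below the highest sham, and it rose by 0.72 ± 0.19 (adjusted p = 0.0139). Itgam, which encodes the integrin chain CD11b, rose by 1.10 ± 0.23. The 3 genes often used to tell resident microglia from other phagocytes did not pass: P2ry12, the ADP receptor of microglial processes, had 193, 171, 178 and 256 in the sham mice and 249, 258, 122 and 305 in the tMCAO mice (0.26 ± 0.21, adjusted p = 0.425). Tmem119 differed by -0.14 ± 0.24 (95% interval -0.65 to 0.37) and Siglech by 0.09 ± 0.16 (-0.26 to 0.44). These intervals hold both rises and falls, for Tmem119 down to -0.65. The non-calls of P2ry12 and Siglech rested on the libraries that stand apart: P2ry12 was called at 0.48 without tMCAO replicate 3 (adjusted p = 0.0136) and at 0.58 (adjusted p = 0.00116) without both libraries, and Siglech at 0.33 (adjusted p = 0.0326) without both. Tmem119 was not called without both (0.04).

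The myeloid transcription factor PU.1 binds sites with the core GAGGAAG, and the promoters of 3 microglial genes that rose and hold it are shown, cut and read as above. Spp1 has 2 starts in the promoter table, of which 1 is shown. Capitals mark GAGGAAG, or CTTCCTC where it lies on the other strand. Positions are chr5:104434861-104435130, plus strand for Spp1, chr3:87263505-87263774, minus strand for Fcrls and chr17:48346151-48346420, plus strand for Trem2.
Spp1: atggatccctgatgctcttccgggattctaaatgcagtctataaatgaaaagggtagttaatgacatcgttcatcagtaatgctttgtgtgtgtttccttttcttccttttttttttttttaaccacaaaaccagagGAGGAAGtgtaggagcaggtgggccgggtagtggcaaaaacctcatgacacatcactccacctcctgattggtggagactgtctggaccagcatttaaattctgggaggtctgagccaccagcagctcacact
Fcrls: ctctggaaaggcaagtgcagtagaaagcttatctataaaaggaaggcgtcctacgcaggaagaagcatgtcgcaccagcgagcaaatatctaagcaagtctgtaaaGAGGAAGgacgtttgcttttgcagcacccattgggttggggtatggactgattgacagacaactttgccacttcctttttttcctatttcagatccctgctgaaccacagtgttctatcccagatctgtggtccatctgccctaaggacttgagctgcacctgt
Trem2: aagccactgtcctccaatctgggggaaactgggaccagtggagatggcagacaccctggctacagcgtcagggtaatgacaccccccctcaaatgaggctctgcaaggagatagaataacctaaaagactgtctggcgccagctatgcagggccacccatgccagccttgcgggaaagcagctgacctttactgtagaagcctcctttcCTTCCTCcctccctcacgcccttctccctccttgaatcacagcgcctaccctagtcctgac
On either strand of the 300-base window, GAGGAAG stood in 7 of 18 genes of both microglial lists that rose and have a promoter in the table (38.9%). It stood in 18.3% of panel genes, in 15.4% of all genes of the promoter table, and also in 12 of 42 panel genes that fell (28.6%).

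**Figure D2:**
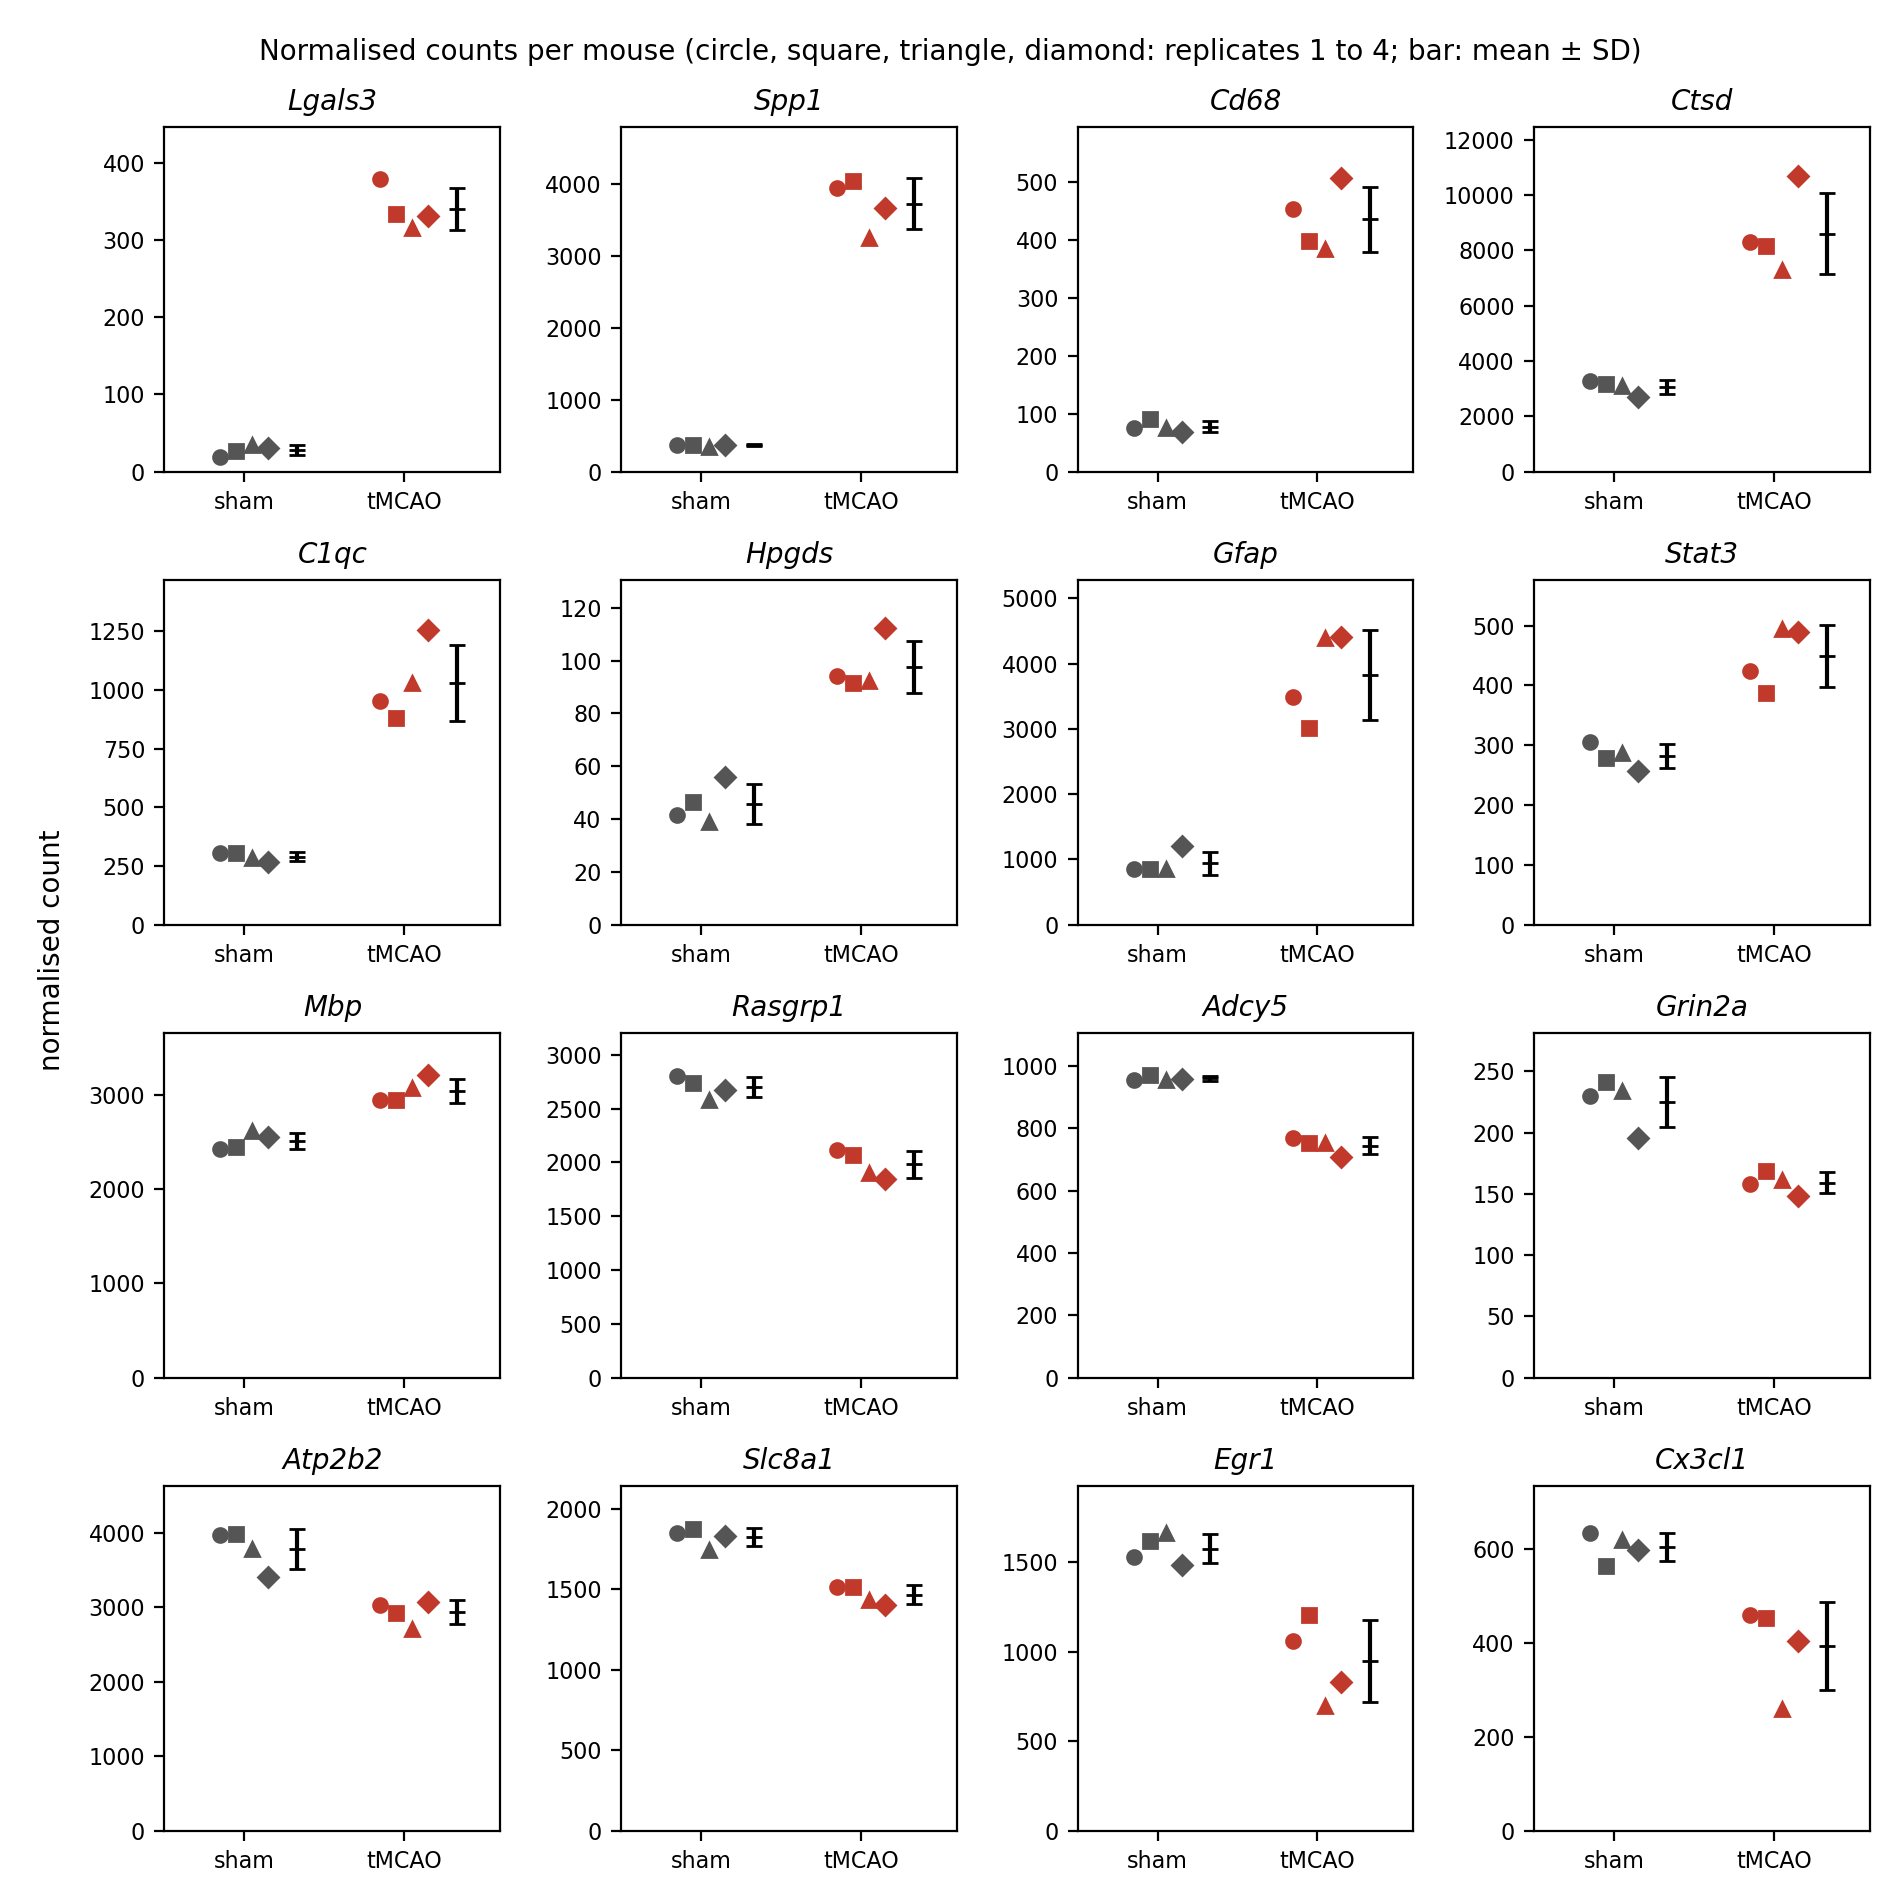
Normalised counts (vertical axis of each panel, from 0) of 16 genes in the 4 sham and the 4 tMCAO mice, with a symbol per replicate and the mean ± SD beside each group. The 9 genes from Lgals3 to Mbp are higher and the 7 from Rasgrp1 to Cx3cl1 are lower after tMCAO, with no overlap of the groups in any panel, and tMCAO replicate 3 (triangle) is the lowest tMCAO mouse for Egr1 and Cx3cl1.

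Complement and Fc receptor genes rose in part. Of 9 complement genes 4 rose and 0 fell: the 3 subunit genes of C1q, which starts the classical pathway, and C3ar1, the receptor of the fragment C3a. C4a/b, counted by a probe for both complement C4 genes, is in none of the lists. It had 152, 132, 111 and 76.1 in the sham mice and 344, 314, 434 and 457 in the tMCAO mice, with no overlap, and rose by 1.65 ± 0.18 (adjusted p = 9.42e-06). Counts of C1qc were 305, 305, 283 and 266 in the sham mice and 951, 882, 1032 and 1257 in the tMCAO mice. No sham came near a tMCAO mouse, and the log2 fold change was 1.82 ± 0.16 (adjusted p = 2.53e-06), next to 1.62 ± 0.15 for C1qa and 1.70 ± 0.17 for C1qb. C3, the central component, had 16.8, 24.2, 17.1 and 20.3 in the sham mice and 33.7, 23.4, 51.4 and 37.8 in the tMCAO mice. The groups overlapped, with tMCAO replicate 3 the highest and replicate 2 among the shams, and the difference of 0.90 ± 0.31 missed the threshold (adjusted p = 0.0523); it was called at 1.06 without tMCAO replicate 2 (adjusted p = 0.0279). Of 10 Fc and innate immune receptors 4 rose and 0 fell. Fcgr1, the high-affinity receptor for IgG, had 31.9, 31.7, 28.0 and 38.0 in the sham mice and 114, 97.5, 67.9 and 127 in the tMCAO mice and rose by 1.68 ± 0.21. Cd14, a co-receptor for bacterial lipopolysaccharide, rose by 1.09 ± 0.23. Tlr4, Tlr3 and Nlrp3 did not pass, with 0.38 ± 0.24, 0.18 ± 0.14 and 0.08 ± 0.27. Counts in the Fc receptor family may include transcripts of close paralogues.

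Markers of cells from the blood were measured in the same libraries. Of 9 leukocyte, monocyte and macrophage markers 6 rose and 0 fell. Cd84, a surface molecule of leukocytes, had 27.5, 29.8, 37.9 and 43.1 in the sham mice and 122, 121, 145 and 138 in the tMCAO mice. The groups were clear of each other, and it rose by 1.98 ± 0.26 (adjusted p = 5.31e-05). Stab1, a scavenger receptor of macrophages, rose by 1.34 ± 0.22, and Spi1, which encodes PU.1 and is also made by microglia, by 1.20 ± 0.23. Ptprc, the pan-leukocyte gene for CD45, had 12.4, 26.1, 12.6 and 15.2 in the sham mice and 45.2, 41.0, 31.0 and 28.4 in the tMCAO mice and rose by 1.12 ± 0.33, a call that was lost without sham replicate 1 (0.082), sham replicate 3 (0.0765), tMCAO replicate 1 (0.0692) and tMCAO replicate 2 (0.0541). Cd163, a scavenger receptor of perivascular macrophages, did not pass (0.01 ± 0.28). Both neutrophil genes missed the threshold, also in DESeq2 and limma and at an unadjusted p of 0.05. The granulocyte growth factor receptor gene Csf3r had 30.1, 20.5, 20.7 and 20.3 in the sham mice and 47.9, 30.2, 23.3 and 29.4 in the tMCAO mice (0.49 ± 0.26, adjusted p = 0.215), and Fpr1 was above background in 1 sham and 1 tMCAO mouse. Of 22 lymphocyte and natural killer cell genes, 7 were above background and 0 rose; the T cell genes Cd3e, Cd8a and Cd3d were above background in 1, 1 and 1 of the 4 tMCAO mice. The 2 members that fell are described with the results that rest on few libraries. Which cells the phagocyte transcripts came from was not tested.

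Of 20 cytokine, chemokine and receptor genes 5 rose (25%) and 1 fell (5%). Over all genes these shares were 14.1% and 7.93%. Ccl12, a ligand of the monocyte receptor CCR2, had 21.3, 23.3, 20.7 and 25.4 in the sham mice and 86.0, 88.7, 71.7 and 103 in the tMCAO mice, with no overlap, and rose by 1.97 ± 0.24 (adjusted p = 3.56e-05). Ccl2, a further CCR2 ligand, was at least 4.29-fold higher. Ccl3, a ligand of receptors on monocytes and T cells, rose by 1.29 ± 0.27, and Tgfb1, a growth factor that restrains inflammation, by 1.15 ± 0.18. The gene that fell was Cx3cl1, which encodes fractalkine, the neuronal ligand of CX3CR1. Its counts were 633, 563, 619.7 and 598 in the sham mice and 459, 452, 258 and 405 in the tMCAO mice. All tMCAO mice were below all shams, replicate 3 by the widest margin. The fall was -0.62 ± 0.13 (adjusted p = 0.00379) and -0.46 without that mouse. The classical inflammatory cytokine genes Tnf, Il6 and Il1b were above background in at most 2 of the 4 tMCAO mice and were not called. A rise that stayed near background could not be detected at this depth.

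Antigen presentation genes rose for 4 of 6 members. B2m, the chain shared by class I molecules, had 1285, 1206, 1423 and 1618 in the sham mice and 2484, 2364, 2019 and 2585 in the tMCAO mice and rose by 0.78 ± 0.10; Psmb8, a subunit of the immunoproteasome, rose by 0.76 ± 0.20 and the class I gene H2-D1 by 0.62 ± 0.11. Of 9 interferon response genes 3 rose. Ifit3, induced by type I interferon, had 131, 123, 125 and 114 in the sham mice and 177, 186, 160.0 and 210.2 in the tMCAO mice and rose by 0.56 ± 0.15, a call that was lost without tMCAO replicate 4 (0.0551). Irf8, which controls gene expression in microglia and macrophages, rose by 1.12 ± 0.27. The signalling gene Stat2 (0.08 ± 0.13, adjusted p = 0.713) and the interferon-induced gene Ifit1 (-0.07 ± 0.22) did not pass. In tMCAO replicate 3 the mean of the antigen presentation genes was 0.27 above the sham mean (log2), against 0.59 to 0.86 in the other 3.

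Nearly all genes listed for haem breakdown, the oxidative burst and antioxidant defence rose, 7 of 8 and 6 of 8 without tMCAO replicate 3, with a median of 1.13. Hmox1, the enzyme that opens the haem ring and frees its iron, had 41.7, 42.9, 37.0 and 55.8 in the sham mice and 116, 123, 152 and 96.7 in the tMCAO mice. Groups did not overlap; tMCAO replicate 3 was the highest mouse here and replicate 4 the lowest. The rise was 1.51 ± 0.28 (adjusted p = 0.0013). Ncf1 and Cybb encode parts of the NADPH oxidase of phagocytes. Ncf1 rose by 1.17 ± 0.26, and Cybb was at least 2.01-fold higher. Tspo, a protein of the outer mitochondrial membrane whose ligands are used to image activated glia, rose by 1.18 ± 0.23. Txn1, which encodes thioredoxin, had a smaller rise of 0.30 ± 0.06. Hpgds does not belong to these roles by its product, since it makes prostaglandin D2; its counts were 41.7, 46.6, 38.8 and 55.8 in the sham mice and 94.0, 91.7, 92.1 and 112 in the tMCAO mice and it rose by 1.13 ± 0.17. Fth1, the iron-storing heavy chain of ferritin and the most abundant of the 8, rose by 0.27 ± 0.09, but its call was lost without sham replicate 1 (0.127), sham replicate 2 (0.148), sham replicate 3 (0.104), tMCAO replicate 1 (0.0603), tMCAO replicate 2 (0.0542) and tMCAO replicate 3 (0.113) and under median, housekeeping and DESeq2 scaling. Its value was 0.17 without tMCAO replicate 3. The superoxide dismutase gene Sod1 did not pass by edgeR with all mice (0.20 ± 0.07, adjusted p = 0.0613), a result that held under 16 of 19 alternatives. It was called without sham replicate 3 (adjusted p = 0.0176) and by DESeq2, which called all 8 genes of the list.

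Reactive astrocyte genes rose while the genes that mark astrocytes at rest did not pass. Of 21 reactive genes 11 rose and 0 fell (median 0.59). Gfap, the main intermediate filament of astrocytes, had 846, 856, 845 and 1199 in the sham mice and 3492, 3013, 4388 and 4403 in the tMCAO mice. Groups were far apart; sham replicate 4 was the highest sham, and tMCAO replicates 3 and 4 were the highest tMCAO mice. The log2 fold change was 2.05 ± 0.17, and 2.17 without sham replicate 4. Stat3, the transcription factor that astrocytes need to become reactive, had 306, 279, 288 and 256 in the sham mice and 425, 387, 494 and 489 in the tMCAO mice and rose by 0.66 ± 0.11 (adjusted p = 0.0006). Vim, Srgn, Emp1 and Tm4sf1, for vimentin, a proteoglycan core protein and 2 membrane proteins, rose by 1.89 ± 0.18, 1.30 ± 0.19, 1.28 ± 0.26 and 0.62 ± 0.15. Of 7 identity genes 0 passed, and the log2 differences were 0.00 to 0.26, positive in 7 of 7 (in 6 under median and 4 under housekeeping scaling). Aqp4, the water channel of astrocyte endfeet, went from 736 ± 127 to 850.4 ± 90.5 normalised counts (0.19 ± 0.11, adjusted p = 0.267), and Slc1a3, a glutamate transporter, differed by 0.13 ± 0.09. Of the 7, 0 passed by edgeR at an unadjusted p of 0.05 and 0 by DESeq2 or limma; without sham replicate 4, 1 passed.

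The promoter of Gfap holds the palindrome TTCCNGGAA that STAT3 binds, here in capitals as TTCCAGGAA (chr11:102897181-102897450, minus strand), and is shown for that reason.
Gfap: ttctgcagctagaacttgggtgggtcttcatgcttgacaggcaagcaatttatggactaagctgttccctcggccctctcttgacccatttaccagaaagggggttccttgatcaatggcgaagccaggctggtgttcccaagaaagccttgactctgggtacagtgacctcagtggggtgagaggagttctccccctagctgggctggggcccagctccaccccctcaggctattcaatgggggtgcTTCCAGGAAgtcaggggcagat
The motif reads the same on both strands apart from its middle base. It stood in 1 of 10 reactive astrocyte genes that rose and have a promoter in the table. The share was 1.08% of panel genes and 1.35% of all genes of the promoter table.

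**Figure D3:**
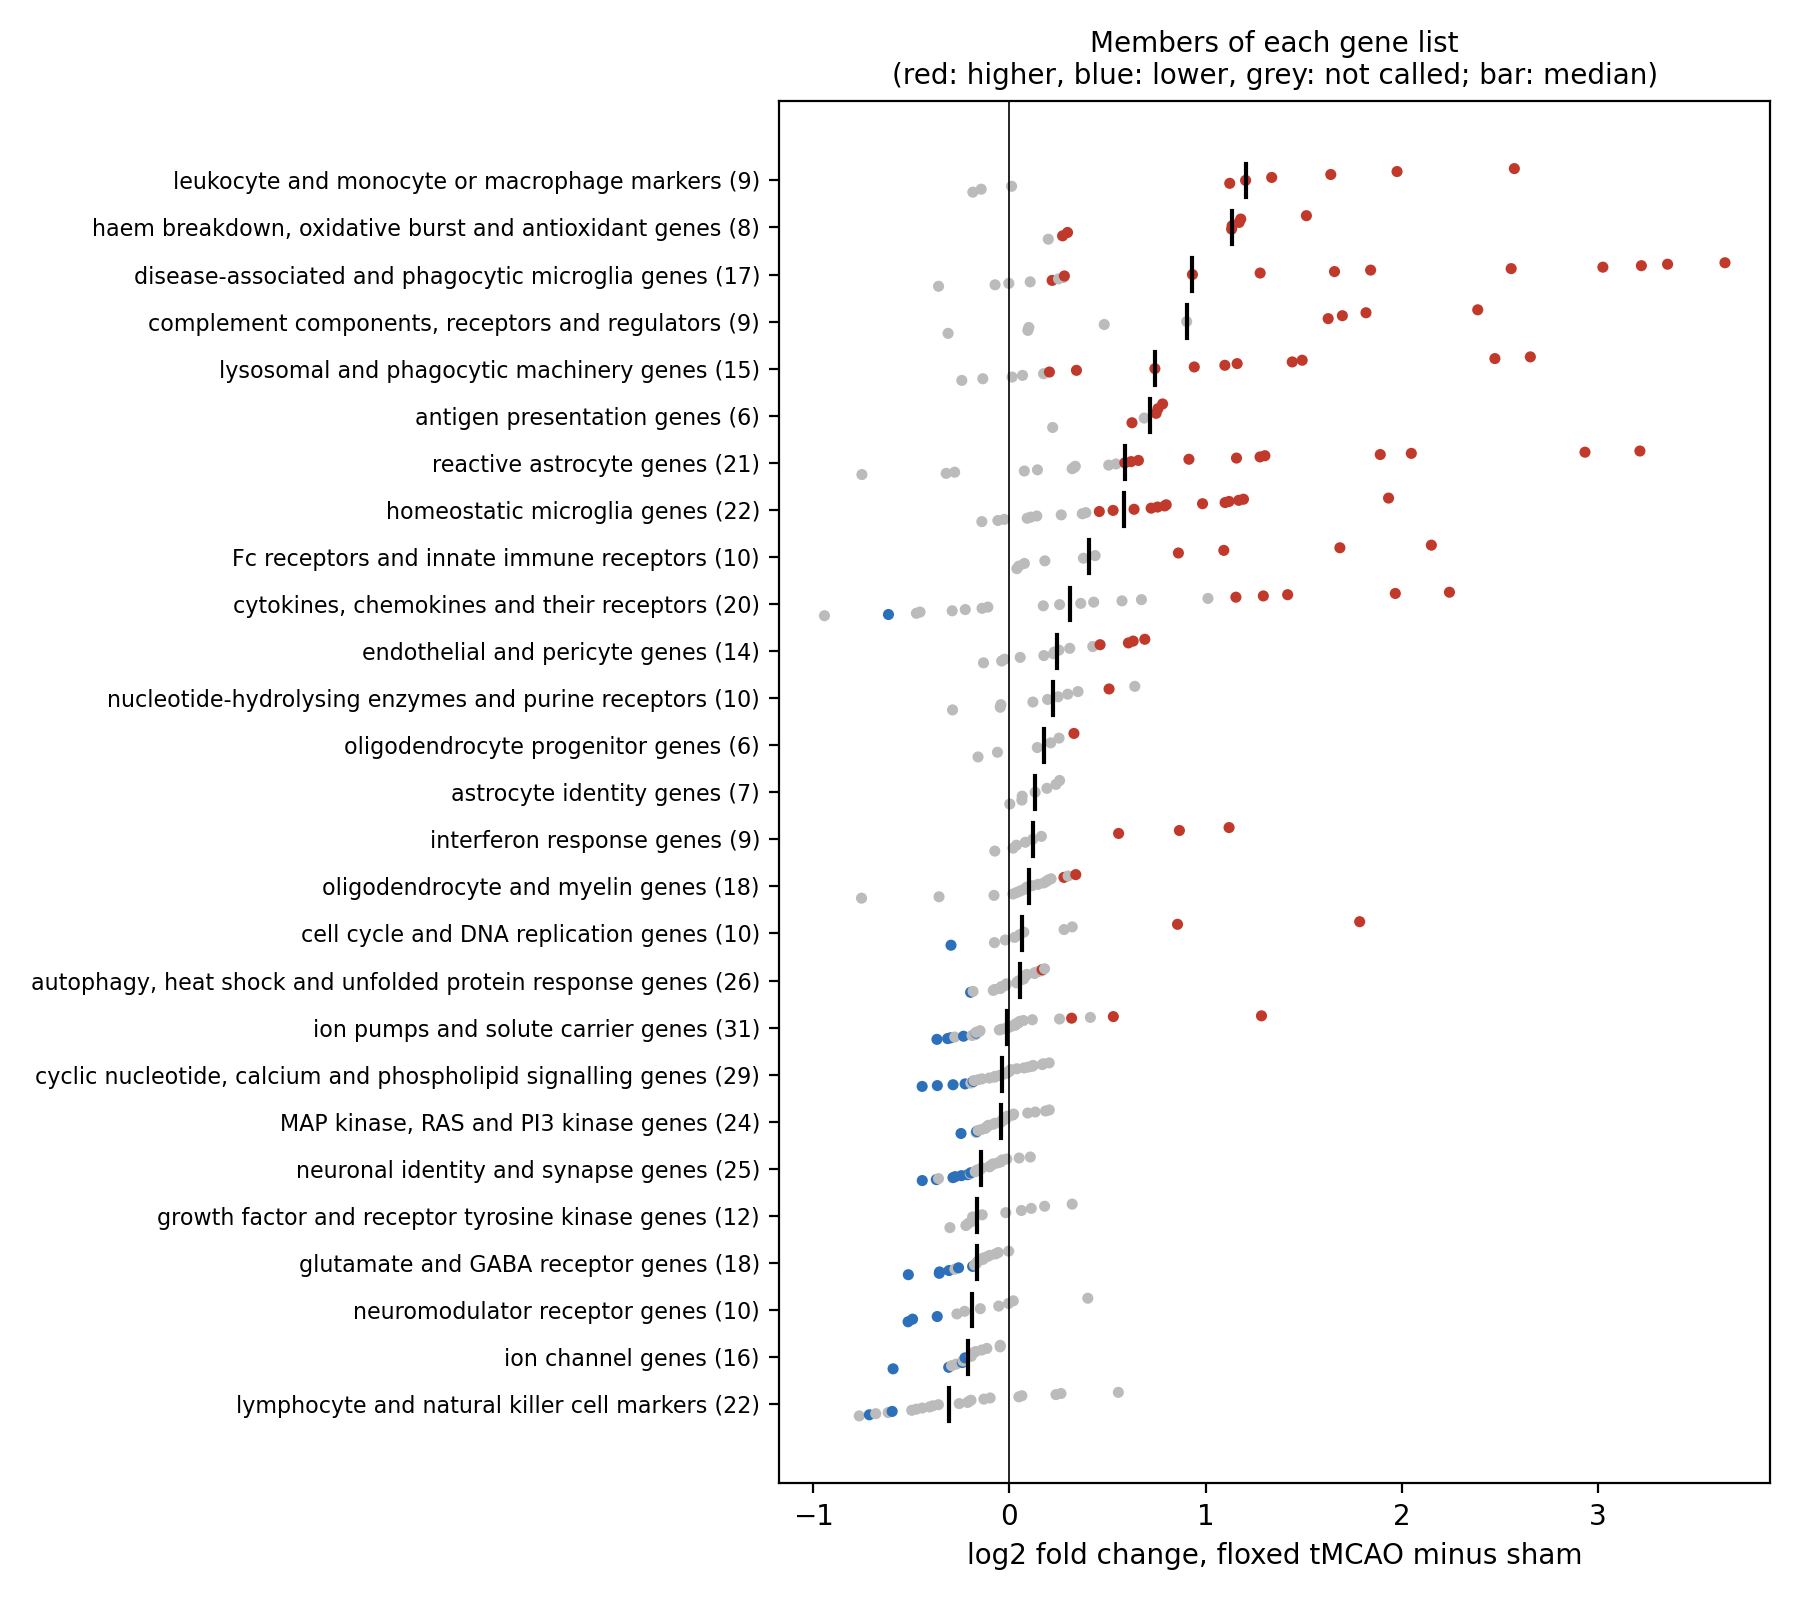
Log2 fold change of floxed tMCAO over sham (horizontal axis) for the members of each gene list (rows, with the number measured), 1 point per gene coloured by call, and a bar at the median of the list. Phagocyte, complement, lysosome and haem lists lie to the right, and the points of the glutamate and GABA receptor and ion channel lists all lie left of 0.

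With all mice, oligodendrocyte and myelin genes rose at no higher share than all genes, a result that rested on tMCAO replicate 3. In addition, 4 vascular genes rose. Of 18 oligodendrocyte and myelin genes 2 rose and 0 fell, and the median was 0.10. The share that rose was 11.1%, and 16.7% for the 6 progenitor genes, against 14.1% over all genes. Mbp, which encodes myelin basic protein, had 2422, 2448, 2610.5 and 2551 in the sham mice and 2939.7, 2939, 3071 and 3209.9 in the tMCAO mice; the groups did not overlap, and it rose by 0.28 ± 0.06 (adjusted p = 0.00252). Gsn, the actin-severing protein gelsolin, rose by 0.34 ± 0.07. The mean of the oligodendrocyte and myelin list was -0.36 in tMCAO replicate 3 and 0.16 to 0.19 in the other tMCAO mice (log2, relative to the sham mean). Without that mouse 5 of the 18 members rose, beside 105 of all 757 genes. Without both libraries that stand apart 6 of the 18 rose, beside 123 of the 757. Of 6 progenitor genes 1 rose, Bcas1, whose call was lost without sham replicate 1 (0.0656), sham replicate 2 (0.0804), sham replicate 3 (0.0623), tMCAO replicate 1 (0.0692), tMCAO replicate 2 (0.0681) and tMCAO replicate 4 (0.0634). Of 14 endothelial and pericyte genes 4 rose, which was 1 without sham replicate 1, 1 without sham replicate 2, 2 without sham replicate 3 and 2 without both libraries that stand apart. The list mean was 0.22 to 0.31 above the sham mean in the 4 tMCAO mice (log2). Nostrin, which binds the endothelial nitric oxide synthase, rose by 0.69 ± 0.22, a call that was lost without sham replicate 2 (0.112), sham replicate 3 (0.0881), sham replicate 4 (0.0543), tMCAO replicate 2 (0.0517), tMCAO replicate 3 (0.101) and tMCAO replicate 4 (0.0589). Pecam1, the endothelial adhesion molecule CD31, rose by 0.63 ± 0.20, lost without sham replicate 1 (0.0862), sham replicate 2 (0.076), tMCAO replicate 1 (0.0579) and tMCAO replicate 3 (0.0941). Adamts1, a secreted metalloprotease, rose by 0.61 ± 0.17, lost without sham replicate 1 (0.0511), sham replicate 3 (0.0661) and tMCAO replicate 3 (0.0512). These 3 calls were also lost without both libraries, where the values were 0.50, 0.43 and 0.40. Esam, an adhesion molecule of tight junctions, rose by 0.46 ± 0.13, a call that was lost without sham replicate 1 (0.0516) and sham replicate 2 (0.0541). Cldn5, the claudin of the blood-brain barrier, differed by 0.23 ± 0.13 (95% interval -0.05 to 0.51) and Vegfa by -0.13 ± 0.12 (-0.38 to 0.12).

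Purine genes are of interest beside the floxed CD73 allele, since CD73 acts on the product of the ectonucleotidases. Of 10 measured, 1 rose and 0 fell. The share that rose was 10%, against 14.1% over all genes. Entpd1, the gene of CD39, which breaks extracellular ATP and ADP down to AMP, had 72.7, 82.0, 85.7 and 88.7 in the sham mice and 123, 99.5, 120.2 and 121 in the tMCAO mice; the groups did not overlap, with tMCAO replicate 2 the lowest of its group, and it rose by 0.51 ± 0.12 (adjusted p = 0.00657). Entpd2, a related enzyme, did not pass (-0.04 ± 0.13). The adenosine receptor genes Adora1, Adora2b and Adora3 differed by 0.12 ± 0.12, -0.05 ± 0.22 and 0.35 ± 0.38, with 95% intervals of -0.13 to 0.37, -0.51 to 0.42 and -0.46 to 1.16. Nucleotide receptor genes P2ry1, P2ry6, P2ry14 and P2rx7 differed by 0.19 ± 0.13, 0.64 ± 0.30, 0.30 ± 0.23 and 0.25 ± 0.16, and the release channel gene Panx1 by -0.29 ± 0.15. None of these 9 passed the threshold with all mice, but P2rx7 was called at 0.43 (adjusted p = 0.0404) without both libraries that stand apart.

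Proliferation and cytoskeletal genes supplied single rises. Mki67, a protein of cycling cells, had 15.1, 25.2, 18.0 and 15.2 in the sham mice and 78.1, 55.6, 53.3 and 73.6 in the tMCAO mice and rose by 1.78 ± 0.28. Ccnb1, the mitotic cyclin B1, also passed (0.86 ± 0.25), a call that was lost without sham replicate 3 (0.0783), tMCAO replicate 1 (0.0763) and tMCAO replicate 2 (0.0541). The member of the cell cycle list that fell was Cdk5r1 (-0.30 ± 0.07), whose product p35 activates the kinase CDK5 in neurons outside the cell cycle. Tmsb4x, the actin-binding thymosin beta 4, was among the most abundant genes of the panel, with 13048, 12551, 15525 and 17308 in the sham mice and 21559.5, 21077, 23305 and 20954 in the tMCAO mice. Its groups did not overlap, sham replicate 4 being the highest sham, and it rose by 0.57 ± 0.10 (adjusted p = 0.00114). The cholesterol exporter gene Abca1 had 451, 446, 398 and 519.8 in the sham mice and 561, 598, 796 and 638 in the tMCAO mice, with replicate 3 the highest, and rose by 0.53 ± 0.12. Abcc3, an exporter of organic anions, was at least 2.18-fold higher. Fabp5, a carrier of fatty acids, rose by 0.50 ± 0.11.

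Genes that move calcium out of the cytosol were among those that fell. Of 31 ion pump and carrier genes 3 rose and 5 fell. Atp2b2, a calcium pump of the plasma membrane of neurons, had 3969, 3985, 3789 and 3408 in the sham mice and 3030.1, 2919.7, 2716 and 3079.6 in the tMCAO mice. All tMCAO mice were below all shams, sham replicate 4 being the lowest sham. The fall was -0.37 ± 0.07 (adjusted p = 0.00102). Slc8a1, a sodium-calcium exchanger, had 1849, 1874, 1744 and 1828 in the sham mice and 1515, 1512, 1433 and 1402 in the tMCAO mice; the gap between the groups was wider than the range within either, and it fell by 0.31 ± 0.05 (adjusted p = 0.000788). Atp2b4, a further pump of the family, fell from 734 ± 39.4 to 593 ± 46.2 normalised counts (-0.30 ± 0.07). Atp2b3, the remaining member measured, did not pass (-0.17 ± 0.13, 95% interval -0.45 to 0.11). It differed by -0.27 without sham replicate 4 and was called at -0.32 (adjusted p = 0.032) without both libraries that stand apart. Atp2a2, the calcium pump of the endoplasmic reticulum, passed (-0.23 ± 0.07), but its call was lost without sham replicate 1 (0.0663), sham replicate 2 (0.0739), sham replicate 3 (0.0537), tMCAO replicate 3 (0.0503) and tMCAO replicate 4 (0.0663). The count of falls was 3 without sham replicate 1, 3 without sham replicate 2, 3 without tMCAO replicate 3, and 6 without both libraries that stand apart. Itpr1, the inositol trisphosphate receptor that releases calcium from the endoplasmic reticulum, is counted with the channels; it had 2906, 3051, 2874 and 2771 in the sham mice and 2561, 2401, 2399 and 2568 in the tMCAO mice and fell by 0.23 ± 0.05 (adjusted p = 0.00435). Grouping these as calcium genes was done after their values were seen.

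Glutamate and GABA receptor subunits fell for 6 of 18 members, 0 rose, and all 18 estimates were negative (median -0.17). They stayed negative under median and housekeeping scaling. Those scalings place the median gene lower (-0.05 and -0.08 against -0.01), so they could hardly have changed these signs. Grin2a, a subunit of the NMDA receptor, had 229.6, 241, 234 and 195 in the sham mice and 158, 169, 161 and 148 in the tMCAO mice. The groups did not overlap, though sham replicate 4 lay below the other shams, and the fall was -0.52 ± 0.09 (adjusted p = 0.00097). Grin3a, Gria2 and Gabra4 passed as well, with -0.31 ± 0.09, -0.19 ± 0.05 and -0.36 ± 0.11. The call for Grin3a was lost without sham replicate 1 (0.0681) and sham replicate 2 (0.0519). That for Gria2, the AMPA receptor subunit that keeps calcium out, was lost without sham replicate 1 (0.0551) and tMCAO replicate 1 (0.0531), and that for Gabra4 without sham replicate 1 (0.0527), sham replicate 3 (0.0867), tMCAO replicate 3 (0.0735) and tMCAO replicate 4 (0.0748) and without both libraries that stand apart (0.0912). Without sham replicate 1 the list held 3 falls. Subunits that did not pass included Gria1 (-0.07 ± 0.06), Gria4 (-0.06 ± 0.12) and Grik2 (-0.00 ± 0.09).

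Ion channel genes fell for 4 of 16 members, 0 rose, and all 16 estimates were negative (median -0.21). They were also negative under median and housekeeping scaling, with the same limit. Kcnq3, a subunit of the potassium channel that carries the M current, had 499, 523, 489 and 477 in the sham mice and 416, 399, 383 and 409.9 in the tMCAO mice; groups were separate, and it fell by 0.31 ± 0.06 (adjusted p = 0.00304). Kcnv1, a silent subunit that modifies other potassium channels, had 439.6, 385, 381 and 474 in the sham mice and 297, 293, 181 and 334 in the tMCAO mice. No tMCAO mouse reached a sham, and replicate 3 was far below the others. The fall was -0.59 ± 0.16, -0.43 without tMCAO replicate 3 and -0.39 without both libraries that stand apart. Scn8a, the sodium channel of the axon's initial segment, fell by 0.24 ± 0.07, a call that was lost without sham replicate 2 (0.0565). Without sham replicate 4 the list held 8 falls. Scn1a, a sodium channel of inhibitory neurons, did not pass (-0.12 ± 0.11) with all mice. It was called at -0.22 without sham replicate 4 (adjusted p = 0.0444) and at -0.29 (adjusted p = 0.00435) without both libraries.

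Some signalling genes that are abundant in the striatum fell. They were put together by the striatum after their values were seen. Of 29 cyclic nucleotide, calcium and phospholipid signalling genes 5 fell (17.2%, against 7.93% over all genes) and 0 rose. The list held 3 falls without sham replicate 1, 3 without sham replicate 2, 3 without tMCAO replicate 1 and 3 without tMCAO replicate 2. Adcy5, the main adenylyl cyclase of striatal projection neurons, had 956, 971, 955 and 958 in the sham mice and 767, 752, 751 and 706 in the tMCAO mice. The shams differed by a few percent, every tMCAO mouse was lower, and the fall was -0.37 ± 0.05 (adjusted p = 0.000181). Rasgrp1, an exchange factor for RAS that is rich in the same neurons, had 2803, 2739, 2583 and 2675 in the sham mice and 2111, 2069, 1906 and 1849 in the tMCAO mice and fell by 0.44 ± 0.07 (adjusted p = 0.000355). Drd1, the dopamine receptor that stimulates this cyclase, had 377, 391, 426 and 441 in the sham mice and 305, 351, 313 and 290.1 in the tMCAO mice. The highest tMCAO mouse, replicate 2, was just below the lowest sham, and the fall was -0.37 ± 0.08. Of 10 neuromodulator receptors, Drd1, Adrb1 and Chrm3 fell and 0 rose; Adrb1, a receptor for noradrenaline, and Chrm3, a muscarinic receptor, fell by 0.49 ± 0.11 and 0.52 ± 0.12. The kinase gene Prkce fell by 0.23 ± 0.06, a call that was lost without sham replicate 1 (0.0564). Adcy1 (-0.18) and Camk4 (-0.29) of the signalling list also passed, and each call held in 2 of the 8 fits that left out 1 mouse.

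Of 25 genes of neuronal identity and synapses 7 fell and 0 rose (median -0.14), a number that was 2 without sham replicate 1, 11 without sham replicate 4 and 11 without both libraries that stand apart. Tbr1, a transcription factor of excitatory neurons of the cortex, had 395, 429.8, 408 and 505 in the sham mice and 286, 315, 329 and 335 in the tMCAO mice; the groups did not overlap, and it fell by 0.44 ± 0.09 (adjusted p = 0.00304). Gad1, an enzyme that makes GABA, had 1603, 1441, 1692 and 1532 in the sham mice and 1319, 1359, 1302 and 1196 in the tMCAO mice and fell by 0.28 ± 0.07. Its partner Gad2 did not pass (-0.08 ± 0.05, 95% interval -0.19 to 0.02). Slc12a5, the chloride exporter KCC2 of neurons, had 1039, 822, 936 and 1047 in the sham mice and 803, 798, 577 and 781 in the tMCAO mice. tMCAO replicate 3 was far below the other 3, and the fall of -0.37 ± 0.11 was -0.27 without it and -0.23 without both libraries that stand apart; the call was lost without sham replicate 1 (0.0661). Among general neuronal genes, Map2 differed by -0.10 ± 0.07, Nefl by -0.14 ± 0.08 and Uchl1 by -0.01 ± 0.09, none past the threshold. Others were called lower, among them Eno2 (-0.25), Ina (-0.19) and Snap25. Of the 8 fits that left out 1 mouse, these calls held in 2, 2 and 5. Of 3 immediate early genes Egr1 fell, with 1529.9, 1618, 1667 and 1488 in the sham mice and 1062, 1208, 696 and 833 in the tMCAO mice; groups did not overlap, replicates 3 and 4 were the lowest, and the change was -0.73 ± 0.16 (adjusted p = 0.0047). Fos (-0.34 ± 0.19) and Jun (0.12 ± 0.08) did not pass.

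Some calls rested on few libraries. The lymphocyte list had 2 members that fell, the T cell co-receptor gene Cd4 (-0.60 ± 0.20) and the transcription factor gene Eomes (-0.71 ± 0.24), at low counts of 47.0, 39.2, 40.6 and 35.5 in the sham mice and 31.0, 31.2, 28.1 and 17.9 in the tMCAO mice for Cd4 and of 68.3, 63.4, 73.1 and 50.7 in the sham mice and 39.9, 45.8, 42.7 and 30.5 in the tMCAO mice for Eomes. The 2 calls were lost, one or both, in 7 of the 8 fits that left out 1 mouse, all except that without sham replicate 4, and none was left without sham replicate 1, 2 or 3 or tMCAO replicate 3 or 4. Eomes and Tbr1 are also made by neurons. Lists in which few or no members passed were growth factors and their receptors with 0 of 12, glucose metabolism and hypoxia with 0 of 4, MAP kinase, RAS and PI3 kinase genes with 2 falls of 24, and autophagy, heat shock and unfolded protein genes with 1 rise and 1 fall of 26. Falls made up 8.33% of the kinase list and 9.09% of the lymphocyte list, near the 7.93% over all genes. The kinase list held 1 fall in each fit that left out a single mouse, except 3 without sham replicate 4. The proteostasis list held 4 rises without sham replicate 4 and 0 without sham replicate 1 or 2 or tMCAO replicate 2, 3 or 4, and its fall was lost without sham replicate 2 or tMCAO replicate 3 or 4. Of the growth factor genes, Bdnf differed by 0.11 ± 0.13 (95% interval -0.16 to 0.38) and Kitl by -0.19 ± 0.07 (-0.34 to -0.03). By edgeR at an unadjusted p of 0.05, 2 of the 12 growth factor genes and 0 of the 4 glucose and hypoxia genes differed, and DESeq2 and limma called 0 of either after adjustment. Under housekeeping scaling 2 growth factor genes were called lower, the most under any alternative.

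**Figure D4:**
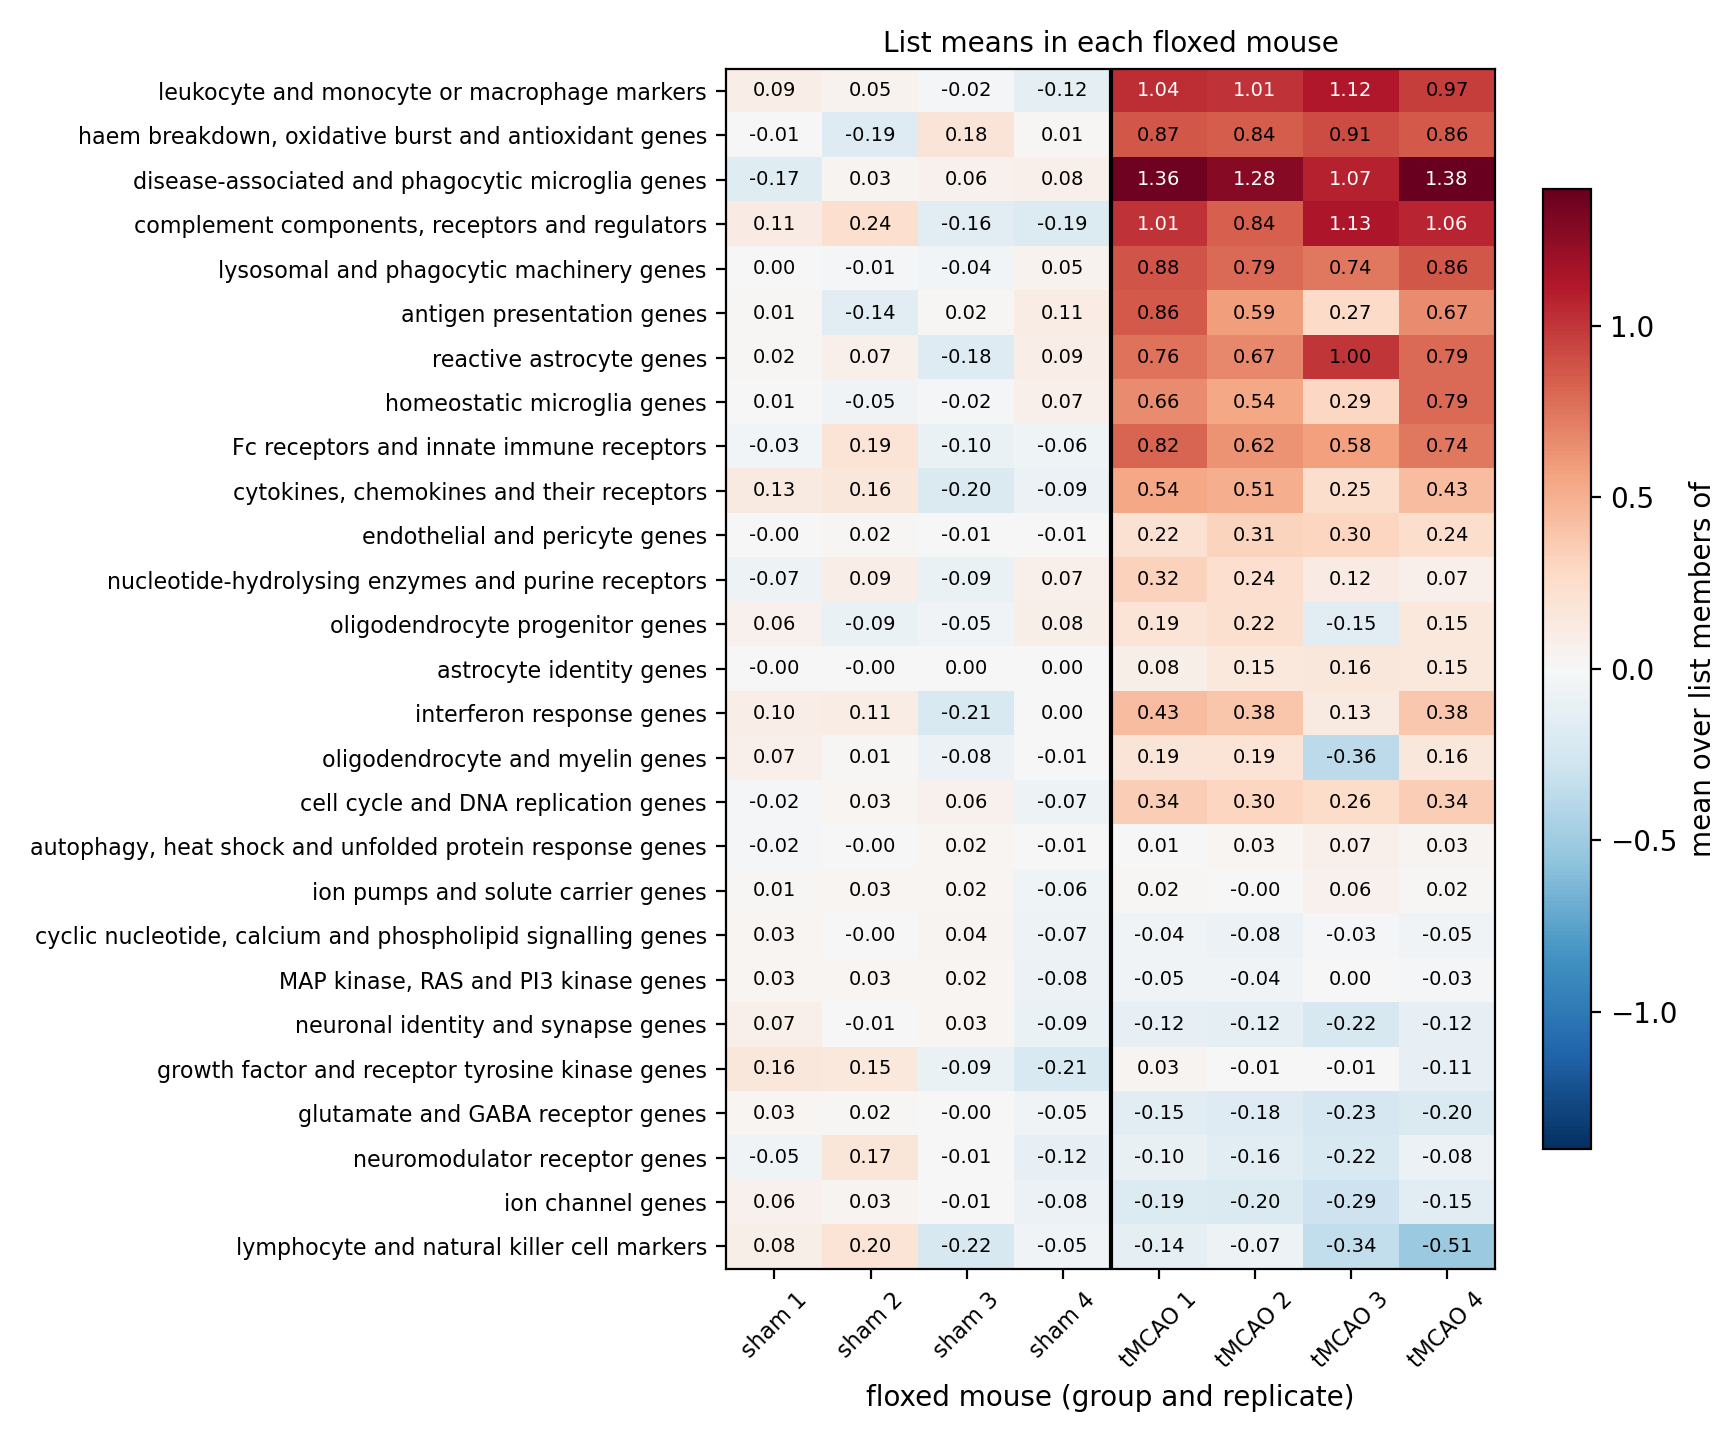
Mean over list members of log2(normalised count + 1) minus the sham mean (colour and printed value) for each gene list (rows) in each of the 8 floxed mice (columns). The tMCAO columns are above 1 for disease-associated microglia genes in all 4 mice (1.36, 1.28, 1.07 and 1.38), and tMCAO replicate 3 departs from the other 3 for myelin genes (-0.36).

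The 4 tMCAO mice did not respond to the same extent in every group of genes. Over the 107 genes that rose, the median difference from the sham mean was 1.12 in replicate 1, 0.94 in replicate 2, 0.87 in replicate 3 and 1.12 in replicate 4 (log2). tMCAO replicate 3 was the lowest of the 4 mice for 53 of these genes and the highest for 30, while replicate 4 was the highest for 56. For reactive astrocyte genes replicate 3 had the highest list mean, 1.00 against 0.67 to 0.79 in the others. For homeostatic microglia genes it had the lowest, 0.29 against 0.54 to 0.79. Over the 60 genes that fell, the median difference was -0.24, -0.23, -0.34 and -0.28 in replicates 1 to 4. Neuronal list means per mouse ran from -0.22 in replicate 3 to -0.12 in replicate 4. Infarct size was not given in the sources used here, and its part in these differences was not tested. The genes that rose made up 11.52 to 13.04% of the endogenous counts in the shams and 17.26 to 19.03% in the tMCAO mice.

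**Figure D5:**
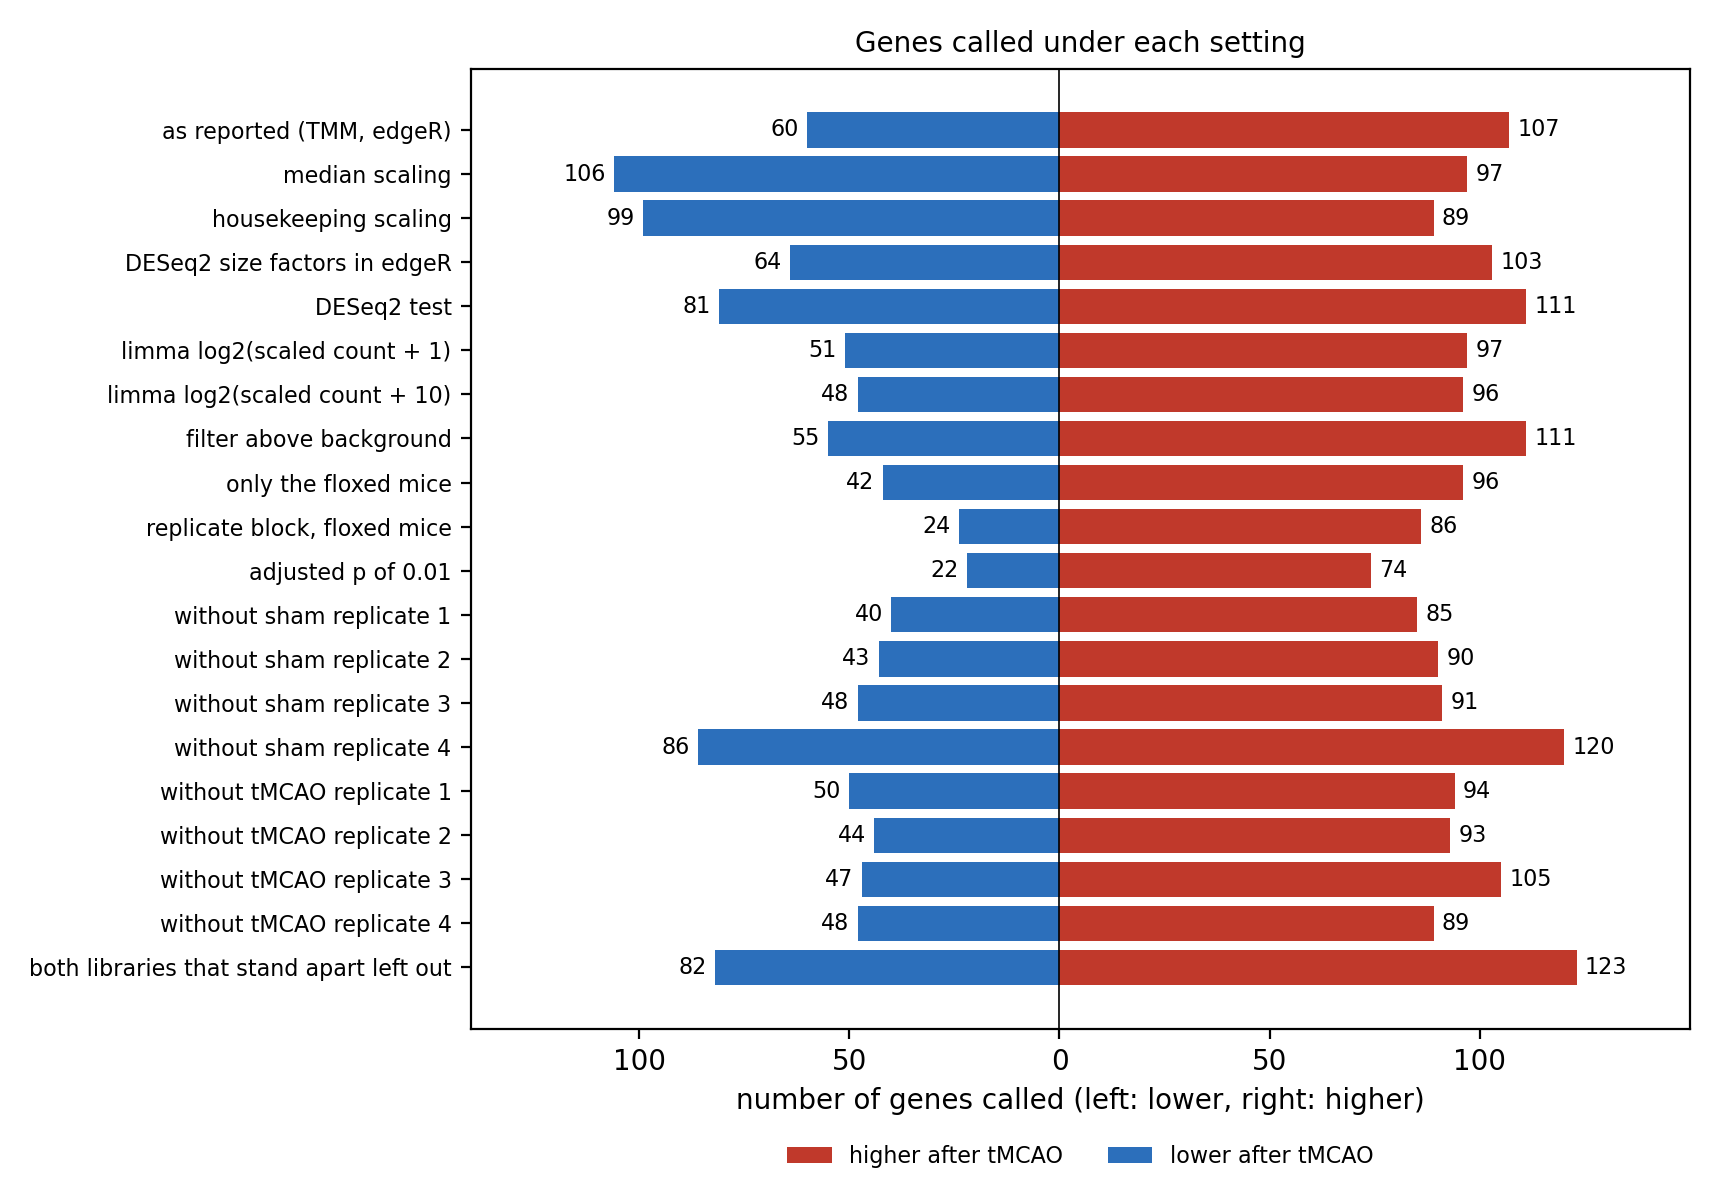
Number of genes called lower (left of 0) and higher (right of 0) after tMCAO under each setting of the test. Rises range from 74 to 123 and falls from 22 to 106, the falls being more numerous than the rises only under median and housekeeping scaling.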

How the data were processed

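Whole brain RNA of 12 mice was counted with the nCounter Glial Profiling Panel; per the labels' protocols the tissue was homogenised in TRIzol. The deposited value table holds raw counts per probe and mouse, described as such by the authors; counting software and any background step are not given in the sources used here. A pair of further deposited tables, normalised by the authors, was left aside because their sample numbers match no label. Groups came from the group label, each mouse a sample. Whether libraries were prepared together is not given in the sources used here, so batch was not tested.

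Counts of the 757 endogenous genes were scaled by TMM, and a model with a coefficient for each of the 3 groups was fitted to all 12 mice in edgeR 4.0.16 (R 4.3.3). The contrast of tMCAO with sham was tested by quasi-likelihood, with p-values adjusted after Benjamini and Hochberg across the 757 genes at 0.05. An adjusted p without a named tool comes from this fit. The SE was obtained by dividing the size of the log2 fold change by the root of the F statistic, with 14.4 degrees of freedom for 95% intervals; the median SE was 0.10. A gene was above background where it exceeded the mean of 8 negative probes plus 2 SD; called genes above it in fewer than 3 mice of the lower group get a lower bound of the fold, from mean log2(normalised count + 1) with the lower group raised to that limit. Of 757 symbols 753 matched RefSeq's gene table of GRCm38.p6, used for names and promoters; the panel's counts do not separate close paralogues, such as those of the Fcgr, H2 and C4 families.

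Members and the 38 gene lists (450 genes, each in 1 list) were chosen with earlier results of these data known. Genes were named by a rule: the 20 largest rises and falls without overlap, up to 5 called members per list, up to 2 that moved against their list, and all purine and neutrophil genes. It took 126 genes, some of which are not reported singly here; genes named beyond it were chosen for their role after their values were seen. The steps were tested on simulated data. Alternatives were 3 other scalings, DESeq2 1.42.0, limma 3.58.1 on log2(normalised count + 1) and + 10, a background filter, only the floxed mice, a replicate block, a threshold of 0.01, each mouse left out and, added after the data were seen, both libraries that stand apart left out. Same-numbered mice of the groups did not deviate together (correlations over genes of their deviations -0.01 to 0.07), so replicate numbers were not taken to pair mice.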

Additional observations from a re-analysis of the deposited data

Results flagged for a closer look

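Within a group of 4 mice, 15 values of the genes named by rule and reported here lay far from the other 3, the gap to the nearest mouse making up more of the group's range than Dixon's 95% critical value for 4 samples allows. Of the 248 groups of 4 looked at chance alone flags about 1 in 20, so single values carry little weight. Sham replicate 4, the library with the lowest total, supplied 7 of the 15, with Gfap at 1199 (others 845 to 856), Vim at 606 (422 to 438), Panx1 at 177 (118 to 126), Hdac2 at 636 (599.9 to 603), Pdpk1 at 581 (565 to 567), Irf8 at 15.2 (12.1 to 12.6) and Tbk1 at 127 (184 to 193), in normalised counts. tMCAO replicate 3 supplied 3, with the astrocyte gene Aldh1l1 at 621 (405 to 441), the oligodendrocyte gene Bcas1 at 1068 (1322 to 1355) and the chloride exporter gene Slc12a5 at 577 (781 to 803). tMCAO replicate 4 had Hpgds at 112 (91.7 to 94.0) and Adrb1 at 86.2 (others 93.6 or more). Entpd1 stood at 99.5 in tMCAO replicate 2 (120.2 to 123). Among the shams, Csf3r was at 30.1 in replicate 1 (20.3 to 20.7) and Ptk2 at 778 in replicate 2 (761 to 763).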

How the results depend on the processing

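Of the 107 genes that rose with all mice, 77 also rose in each of the 8 fits that left out 1 mouse, 89 under each of the 3 other scalings and 72 under all 19 alternatives. Of the 60 that fell these numbers were 28, 60 and 18, and 0 genes were called in the opposite direction under any alternative. Leaving out 1 mouse gave 125 to 206 calls, 85 to 120 rises and 40 to 86 falls, the lowest of each without sham replicate 1 and the highest without sham replicate 4. Falls numbered 106 under median scaling and 99 under housekeeping scaling, which place the median gene at -0.05 and -0.08 (log2) against -0.01. A threshold of 0.01 left 96 calls, 74 rises and 22 falls. With the replicate number as a block over the 8 floxed mice, 110 genes were called, 86 rises and 24 falls; the numbers do not pair mice by the check in the methods, and the block uses up degrees of freedom. Without the block the floxed mice alone gave 138 calls. DESeq2 called 192 genes and gave no adjusted p for 15, limma 148 and 144 with pseudocounts of 1 and 10, the background filter 166 and DESeq2's size factors 167. Depth limited genes near background: 45 of 757 were above it in fewer than 3 mice of each of the 3 groups, CD73ko mice included. In the floxed mice alone, 710 of 757 were above it in at least 3 mice of either group. Intervals and p-values cover the spread between these mice only.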

Other observations

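Genes in none of the lists added 12 rises (3.91%) and 22 falls (7.17%) of 307. Over all genes the shares were 14.1% and 7.93%, so neither share was above that of the panel. The genes named here and below were picked out after their values were seen. Klk6, a secreted protease made by oligodendrocytes, had 168, 161, 175 and 147 in the sham mice and 365, 362, 182 and 418 in the tMCAO mice and rose by 1.01 ± 0.24 (log2). Chil1, a chitinase-like protein of reactive astrocytes, rose by 0.68 ± 0.16, F11r, a junctional adhesion molecule, by 0.61 ± 0.13, and Bhlhe41, a transcription factor of microglia, by 0.44 ± 0.11.

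Among the falls outside the lists were genes that shape neuronal processes. Wasf1 and Nckap1, members of the WAVE complex that drives branched actin, fell by 0.29 ± 0.07 and 0.22 ± 0.05. Chn1, a regulator of the GTPase RAC that is rich in neurons, had 3599, 3586, 3853 and 4830.3 in the sham mice and 3211, 3221, 3282 and 3134 in the tMCAO mice and fell by 0.30 ± 0.08 (adjusted p = 0.0189), and by 0.19 without sham replicate 4, the highest sham. The adhesion genes Nrcam and Ncam2 fell by 0.28 ± 0.07 and 0.26 ± 0.07, the microtubule-linked kinase gene Dclk1 by 0.25 ± 0.06, and Rab6b, a GTPase of neuronal vesicle transport, by 0.27 ± 0.06. Zfp365 had the widest fall of those outside the lists, -0.41 ± 0.09, with 1923, 1838, 2039.5 and 2424 in the sham mice and 1576, 1645, 1369 and 1559.8 in the tMCAO mice and no overlap. Each of the genes named in these paragraphs was also called in all 8 fits that left out 1 mouse.

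Rorb and Cux2, transcription factors of cortical layers, fell by 0.31 ± 0.10 and 0.24 ± 0.07 beside Tbr1. The call for Rorb was lost without sham replicate 2 (0.101), sham replicate 4 (0.0618), tMCAO replicate 2 (0.0695), tMCAO replicate 3 (0.0876) and tMCAO replicate 4 (0.0731). The call for Cux2 was lost without sham replicate 1 (0.0662), tMCAO replicate 1 (0.0637), tMCAO replicate 2 (0.0592) and tMCAO replicate 3 (0.0512). Both calls were also lost without sham replicate 4 and tMCAO replicate 3 together.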
